A study of Mus musculus with 56 samples.

Results

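The clustered protocadherins are a row of cell-surface adhesion genes on mouse chromosome 18, and their RNA was followed here while fibroblasts were reprogrammed to pluripotent cells with normal, lowered or raised levels of the insulator protein CTCF. Members were taken by name, as every row whose symbol is Pcdha, Pcdhb or Pcdhg followed by an isoform number or by a, b or c and a number. The sorted-cell table held 28 of them among 13451 genes, and the day 10 overexpression table held 41 among 12935. Together the tables held 42 members, of which 27 were in both. The sorted-cell table listed 6 beta genes (Pcdhb14, Pcdhb17, Pcdhb18, Pcdhb19, Pcdhb21 and Pcdhb22), 21 gamma rows and a single alpha row, Pcdhac2. The day 10 table listed those 6 beta genes with Pcdhb16 and Pcdhb20, the 21 gamma rows, and 12 alpha rows without Pcdhac2.

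Clustered protocadherins are best known from neurons, where each cell uses its own combination of isoforms as a surface identity that lets its branches recognise one another. Each alpha or gamma isoform starts from its own promoter and variable exon and is spliced to constant exons that the whole alpha or gamma family shares, whereas a beta gene is a single gene with no shared constant exon. CTCF and cohesin bind at many of the isoform promoters and at distant enhancers and bring them together, which is why the cluster is a standard locus for the study of CTCF.

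All reprogrammed cells began as mouse embryonic fibroblasts. The sorted cells carried a doxycycline-inducible lentivirus with Oct4, Sox2, Klf4 and Myc (OSKM) and either a control shRNA (shLuci) or one against Ctcf. They were taken at day 0, at days 3, 6 and 9 after sorting into Thy1+ cells, SSEA1+ cells and cells with neither marker (double-negative, DN), and at day 12 as GFP+ cells, which makes 11 populations, 22 groups and 44 libraries. Thy1 marks fibroblasts, SSEA1 an intermediate of reprogramming, and GFP is the Oct4 reporter that OG2 fibroblasts carry. The day 10 cells received OSKM, by a route that the labels do not tie to them (retroviral and inducible lentiviral OSKM are both described), and a control, a CTCF vector, or a CTCF vector with an shRNA against Smarca5, the ATPase of ISWI chromatin remodellers, with 2 libraries in each group. The reprogramming medium of all infected cells held vitamin C, and nothing in the labels says whether the 2 libraries of a group came from separate cultures, so p-values measure the spread between these libraries, which may be technical. A separate table held 1 library of fibroblasts (MEF) and 1 of induced pluripotent stem cells (iPSC), and the authors' own day 10 comparisons were deposited as means without libraries.

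In the annotation (GENCODE vM21, GRCm38, plus strand) the 14 alpha genes lie at 18:36930184-37187661, the 22 beta genes at 18:37264938-37524479 and the 22 gamma genes at 18:37661793-37841873. Between 27.8% and 66.8% of the exon bases of a gamma gene, and 38.0% to 54.9% of those of an alpha gene, also belong to other members, against 0% to 9.7% for beta genes, where only Pcdhb21 and Pcdhb22 overlap each other. The 19 gamma rows other than Pcdhgc3 and Pcdhga1 differed within a library by a factor of only 1.05 to 1.24 from lowest to highest score, not divided by length. Alpha and gamma rows are therefore given as family values and not as separate measurements. The predicted gene Gm42416, which spans alpha and gamma exons, shares exons with every gamma row and was also counted in both tables. The beta genes are related in sequence, and neither how reads that fit several of them were shared out nor whether strand was used is given in the sources used here.

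Values are scores: gene counts that the authors normalized and rounded, with nearly the same distribution in each library of a table. Differences are log2 of score + 1, with the moderated standard error (SE) of limma, and a gene was called at a Benjamini-Hochberg adjusted p below 0.05 over all genes of its table. Ctcf itself had lower scores with its shRNA in all 11 populations with no overlap between libraries, from 790 to 2441 in control libraries and from 390 to 865 in shRNA libraries. At day 10 Ctcf stood at 1262 and 1234 with the control, at 5110 and 6132 with the CTCF vector and at 7225 and 5205 with the added Smarca5 shRNA. The 8 pluripotency genes checked summed to 8 and 9 in the day 0 control libraries and to 39616 and 38924 at day 12, and the 10 fibroblast genes to 234923 and 212633 and to 45059 and 47801. The neural list, of which 10 of 12 genes were measured, summed to 6250 and 5737 at day 0 and to 6570 and 6792 at day 12. Per-library depth is unknown, because normalization removed it.

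Along control reprogramming every beta gene measured was lower at the end than at the start. The 6 are those of 22 beta genes that were listed, and every listed gene had a score of 10 in at least 2 libraries. Some, such as Pcdhb22, stayed below 10 at day 12, so they were listed through groups where they were high. The number that fell is therefore partly set by that selection, here and in the SSEA1+ comparisons below. All 6 fell from day 0 to the GFP+ cells of day 12, where 40.2% of all genes tested were called lower, with log2 differences from -2.61 (SE 0.626) for Pcdhb19 to -4.32 (SE 1.26) for Pcdhb14. Pcdhb14, the beta gene with the highest score per kilobase of exon at day 0 (48.6 ± 17.1 SD, n = 2), stood at 318 and 528 in the day 0 libraries and at 46 and 8 at day 12. Pcdhb19 stood at 79 and 114 at day 0 and at 12 and 18 at day 12. Both day 12 libraries lay far below both day 0 libraries for each of these genes. The most precise fall was that of Pcdhb22, from 64 and 100 to 6 and 3, a log2 difference of -3.94 (SE 0.320, adjusted p = 1.04e-11). The median over the 6 genes was -3.56, beside -0.01 over all genes. Without replicate 2 of the day 12 control, whose beta scores summed to 39 beside 92 in replicate 1, the differences of Pcdhb14 and Pcdhb18 were -3.13 and -2.08, with adjusted p of 0.0638 and 0.0841. All 10 fibroblast genes fell in the same comparison, and their part in the beta result was not tested. In such bulk RNA, fewer cells that use a gene and less RNA per cell cannot be told apart.

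**Figure D1:**
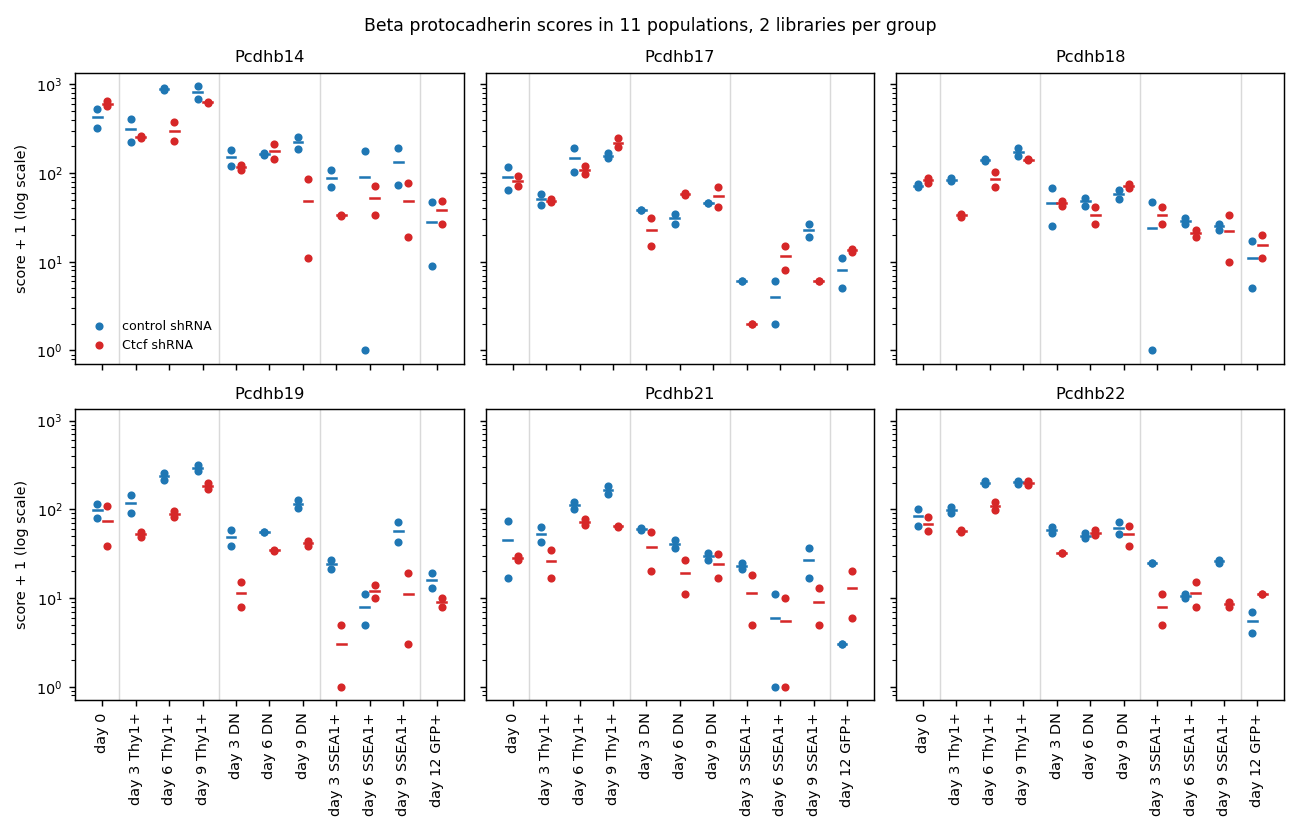
Scores of the 6 beta protocadherins (y axis, score + 1, log scale) in the 11 populations, with 1 point per library, a bar at the mean of 2 libraries, control shRNA in blue and Ctcf shRNA in red. Scores are highest in Thy1+ cells, up to 946 for Pcdhb14 at day 9, and lowest in SSEA1+ and GFP+ cells.

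Beta genes also differed between the sorted fractions of days 3, 6 and 9. In SSEA1+ against Thy1+ control cells, 4 of 6 beta genes were lower at day 3, 6 of 6 at day 6 and 5 of 6 at day 9, where 28.8%, 33.8% and 30% of all genes were. For the beta genes other than Pcdhb18, whose gap was narrowest then, day 6 showed the widest gaps. Pcdhb22 stood at 190 and 206 in Thy1+ cells and at 10 and 9 in SSEA1+ cells, a log2 difference of -4.24 (SE 0.320, adjusted p = 2.96e-12). Pcdhb17 stood at 102 and 190 against 1 and 5, a difference of -5.34 (SE 0.433). For both genes the fractions were far apart in every library. Pcdhb14 had the widest fitted gap, -6.04 (SE 1.26), but its SSEA1+ libraries were at 0 and 178, and without the library at 0 the difference was -2.29 and with that library alone -9.78. The difference of Pcdhb21 at day 6, -5.06, was -3.33 without the same SSEA1+ library. Pcdhb18 was at 0 in 1 of 2 day 3 SSEA1+ libraries, and its day 3 difference of -3.62 was -6.40 with that library alone and -0.85 without it (adjusted p = 0.222). The day 6 call of Pcdhb18 (-2.28) was lost on leaving out any of its 4 libraries (adjusted p of 0.0613 to 0.0857). The day 9 call of Pcdhb21 (-2.72) was lost without replicate 2 of either fraction (adjusted p = 0.0567 and 0.101).

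Against day 0, 4, 5 and 2 of the 6 beta genes were lower in SSEA1+ cells at days 3, 6 and 9, beside 32.5%, 35% and 36.1% of all genes. Pcdhb17 and Pcdhb22 were called at all 3 days, with log2 differences of -3.86, -4.65 and -1.95 for Pcdhb17 and of -1.70, -2.95 and -1.64 for Pcdhb22. The other genes called at day 6 were Pcdhb14 (-4.94), Pcdhb19 (-3.69) and Pcdhb21 (-3.42). The call of Pcdhb14 rested on the library at 0 (-1.20 without it, and -8.68 without the other), and that of Pcdhb21 was lost without the same library (-1.69) or day 0 replicate 1 (-2.36), and was -5.15 without the other SSEA1+ library. At day 3 Pcdhb18 (-3.39) likewise rested on its library at 0, with -0.61 without it and -6.17 without the other. From SSEA1+ cells of day 9 to GFP+ cells of day 12, 4 of 6 were lower (33.6% of all genes): Pcdhb21 by -3.06, Pcdhb22 by -2.30, Pcdhb19 by -1.81 and Pcdhb17 by -1.61. Those of Pcdhb17, Pcdhb19 and Pcdhb21 were lost on leaving out 1 library: day 12 replicate 2 for Pcdhb17 (-1.04), day 12 replicate 1 or day 9 replicate 1 for Pcdhb19 (-1.54 and -1.45), and day 9 replicate 1 for Pcdhb21 (-2.50). Without day 9 replicate 1 the count was 2.

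Few beta genes were called between Thy1+ cells and day 0. None of the 6 beta genes was called higher than at day 0 on day 3, 1 on day 6 and 3 on day 9, when 22.3%, 28.9% and 30.3% of all genes were called higher, and the 4 calls of 18 are no more than that background. Pcdhb22 rose to 190 and 206 at day 6 and to 191 and 208 at day 9, from 64 and 100 at day 0, which are log2 differences of 1.30 and 1.31 (SE 0.320). Both later pairs lay above both day 0 libraries. Pcdhb19 at day 9, with 318 and 266, gave 1.61 (SE 0.626), and Pcdhb21, with 149 and 182 against 73 and 16, gave 2.22 (SE 0.927). Those calls of day 9 were lost without either day 9 library (adjusted p of 0.109 and 0.0624 for Pcdhb19, 0.0828 and 0.131 for Pcdhb21), and also without day 0 replicate 1 for Pcdhb19 (1.34) and replicate 2 for Pcdhb21 (1.16). The fibroblast genes summed to 484948 and 528106 in Thy1+ cells of day 9 and to 10161 and 10213 in SSEA1+ cells of day 6, so their levels were high and low in the same fractions as the beta genes. Whether they share a source was not tested.

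The beta genes followed one profile. Over the 22 groups of the table, the correlation (Pearson) of each beta gene with the mean log2 profile of all 6, of which it is itself a part, ran from 0.85 for Pcdhb18 to 0.99 for Pcdhb22. Gamma rows lay between 0.90 and 0.92, although they were no part of the mean, and Pcdhac2 at -0.05. The 5 genes outside the cluster with the most similar profiles were Fgf7, a fibroblast growth factor (0.97), Kdelr1, a receptor that retrieves proteins to the endoplasmic reticulum (0.96), the calcium-binding S100a1 (0.96), Tmem26 (0.96) and the adenylate kinase Ak5 (0.96). The median over all genes was -0.14. These correlations are all taken over the same libraries and carry no test. Fibroblast content was not measured, and its part in these profiles was not tested.

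Gamma rows fell along the same path, by less. The median gamma row stood at 2478 and 2235 at day 0 and at 704 and 746 at day 12, and the 21 rows fell by 1.69 on the log2 scale in the median, from -1.83 for Pcdhgc3 to -1.49 for Pcdhga12 (adjusted p of 4.51e-17 to 5.03e-15). In SSEA1+ against Thy1+ cells the median difference was -0.997, -2.09 and -1.63 at days 3, 6 and 9. All 21 rows, which stand for 1 shared measurement, were called lower each time, beside 28.8%, 33.8% and 30% of all genes. Against day 0 the rows of Thy1+ cells fell by 0.37 at day 3 (20.1% of all genes). They rose by 0.29 and 0.65 at days 6 and 9 (28.9% and 30.3% of all genes). The day 3 fall of Pcdhgc3 (-0.26) was lost on leaving out any 1 of its 4 libraries (adjusted p of 0.0587 to 0.188), and the day 6 rise of the median row without day 0 replicate 2 (0.22, adjusted p = 0.0701). Among control groups the median row was thus highest in Thy1+ cells of day 9, at 3686 and 3695, and lowest in SSEA1+ cells of day 6, at 663 and 659, close to the day 12 pair.

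Pcdhac2, a C-type alpha isoform, did not follow this order. It stood at 33 and 44 at day 0, at 28 and 28 in day 3 Thy1+ cells and at 48 and 98 in day 3 SSEA1+ cells, so the SSEA1+ fraction was the higher one, by 1.26 (SE 0.294, adjusted p = 5.22e-04; 35.4% of all genes were called higher). Without the SSEA1+ library at 98 that difference was 0.76, and with only the compared groups in the fit the call was lost (adjusted p = 0.0642). Day 6 SSEA1+ cells held 81 and 79, a rise of 1.05 over day 0 (adjusted p = 0.00219, beside 42% of all genes). By day 9 the fractions had changed places, with 66 and 106 in Thy1+ and 38 and 46 in SSEA1+ cells, a difference of -0.98 (adjusted p = 0.00451), and day 12 held 24 and 24. That day 9 difference was -0.65 (adjusted p = 0.112) without the Thy1+ library at 106, and the day 9 rise of Thy1+ cells over day 0 (1.11) was 0.78 (adjusted p = 0.0613). The day 3 rise of SSEA1+ cells over day 0 (0.83, beside 39.7% of all genes) was 0.33 without the library at 98 and 1.34 without the other, and 0.63 without day 0 replicate 1. The fall from day 0 to day 12, -0.65 with an adjusted p of 0.0465, was lost without any of day 0 replicate 2, day 12 replicate 1 or day 12 replicate 2 (adjusted p of 0.266, 0.113 and 0.113). The fall from day 9 SSEA1+ cells, -0.78, was lost without either day 12 library or day 9 replicate 2 (adjusted p of 0.0805, 0.0804 and 0.146).

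With Ctcf shRNA, averaged over the 11 populations, 2 of the 6 beta genes were called lower and none higher, where 25.8% of all genes were called lower and 26.2% higher. Pcdhb19 was lower by 1.32 on the log2 scale (SE 0.189, adjusted p = 1.68e-06), and its mean was lower with the shRNA in 10 of 11 populations. Pcdhb22 was lower by 0.48 (SE 0.096, adjusted p = 1.71e-04) and in 8 of 11. The others were not called: Pcdhb21 at -0.63 (adjusted p = 0.0599, lower in 10 of 11), Pcdhb14 at -0.46, Pcdhb17 at -0.06 and Pcdhb18 at -0.01. Without the day 6 SSEA1+ control library in which Pcdhb14 and Pcdhb21 were at 0, the count was 4, with Pcdhb14 at -0.80 (adjusted p = 0.00407) and Pcdhb21 at -0.79 (adjusted p = 0.00988). Pcdhb21 passed on leaving out any of 9 of the 44 libraries, that one included.

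Pcdhb19 shows what lies behind that mean. In Thy1+ cells it stood at 145 and 90 with control and 48 and 54 with Ctcf shRNA at day 3, at 258 and 212 against 95 and 80 at day 6, and at 318 and 266 against 168 and 199 at day 9. In DN cells it stood at 38 and 57 against 7 and 14, at 54 and 55 against 33 and 34, and at 102 and 127 against 43 and 38. In SSEA1+ cells it stood at 20 and 26 against 4 and 0 at day 3, at 4 and 10 against 9 and 13 at day 6, and at 70 and 42 against 18 and 2 at day 9. The shRNA libraries lay below both controls in 9 of 11 populations, and the groups overlapped at day 0 (79 and 114 against 109 and 38) and in day 6 SSEA1+ cells. Pcdhb18, at the other end, stood at 81 and 86 against 34 and 31 in day 3 Thy1+ cells, but at 64 and 50 against 67 and 75 in day 9 DN cells and at 16 and 4 against 10 and 19 at day 12. Its sign differed between populations.

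Within single populations, 9 of 66 beta differences were called. In day 6 DN, day 9 SSEA1+, day 9 DN and day 12 cells, 9.04% to 24.6% of all genes were called in 1 direction alone. In the remaining populations 4.02% (day 3 Thy1+) to 22.2% (day 6 SSEA1+) were called in either direction. The total is therefore not read as an excess over all genes. Day 3 and day 9 SSEA1+ cells held 3 each, all lower: Pcdhb19 by -3.41 and -2.87, Pcdhb22 by -1.75 and -1.61, and Pcdhb17 by -1.58 and -1.92. There 3.22% and 9.04% of all genes were called lower. In day 9 SSEA1+ cells 9 of the 10 fibroblast genes were lower too (sums of 75242 and 74137 against 35393 and 40610), whereas at day 3 none was lower and 1 higher. The keratinocyte gene Krt14 was higher on both days (4.12 and 1.39). The part of these genes in the beta result was not tested. Pcdhb22 stood at 24 and 24 against 10 and 4 at day 3 and at 26 and 24 against 8 and 7 at day 9. Its groups did not overlap on either day, and its calls held without any 1 of the libraries but not with only the 2 compared groups in the fit (adjusted p = 0.24 and 0.0575). The calls of Pcdhb19 were lost without shRNA replicate 2 of that day (-2.25 and -1.54), that of Pcdhb17 at day 3 without any 1 library (adjusted p of 0.0999 to 0.127), and that at day 9 without control replicate 2 (adjusted p = 0.0511). The other calls were Pcdhb19 lower in day 3 DN cells (-2.12, adjusted p = 0.0477; 2.54% of all genes), Pcdhb17 higher in day 6 SSEA1+ cells (1.66; 11.2%) and Pcdhb22 higher at day 12 (1.06, SE 0.320; 24.6%). The first was lost without any 1 library (adjusted p of 0.0837 to 0.379), the next without shRNA replicate 2 or control replicate 1 (1.21 and 0.87), and the last without control replicate 2 (0.65). Pcdhb22 at day 12 stood at 6 and 3 with control and 10 and 10 with Ctcf shRNA, scores close to the bottom of the scale. The difference between the day 12 and day 0 effects of the shRNA was 1.31 for Pcdhb22 (SE 0.452, adjusted p = 0.0233), where 21.2% of all genes were called in that direction.

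**Figure D2:**
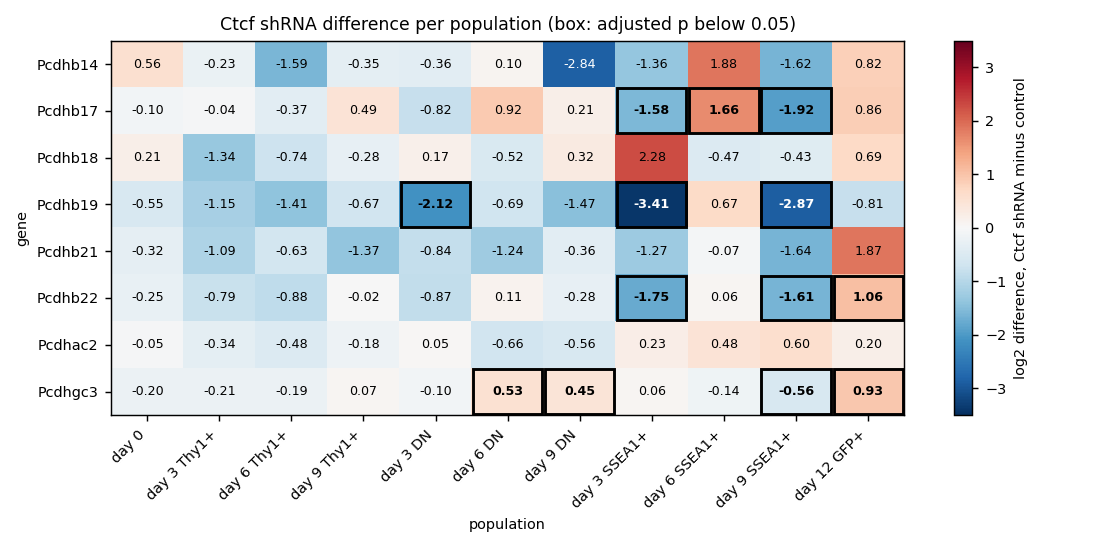
Log2 difference between Ctcf shRNA and control (colour and number) for the 6 beta genes, Pcdhac2 and Pcdhgc3 (rows) in the 11 populations (columns), with boxes around adjusted p below 0.05. The called beta differences lie in SSEA1+, day 3 DN and day 12 cells, and Pcdhb19 is negative in all but day 6 SSEA1+ cells.

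The gamma rows went both ways with Ctcf shRNA. In GFP+ cells of day 12 the median row stood at 704 and 746 with control and at 1291 and 1320 with the shRNA, and all 21 rows were higher, by 0.85 in the median (0.81 for Pcdhga3 to 0.93 for Pcdhgc3, adjusted p of 9.88e-10 to 1.32e-08; 24.6% of all genes). In DN cells all 21 rows were higher at day 6 (median 0.59; 20.2% of all genes) and at day 9 (median 0.39; 14.6%), with 1268 and 1184 against 1853 and 1940, and 2185 and 2098 against 2834 and 2846. In SSEA1+ cells of day 9 all 21 rows were lower (median -0.54; 9.04%), with 1174 and 1190 against 812 and 816. In these 4 populations the groups were fully apart, but that was not limited to them. Over all populations the median row was lower without overlap in 4 and higher without overlap in 4. No gamma row was called in the other 7, where 6.68% (day 0), 4.02%, 6.78% and 4.88% (day 3 Thy1+, SSEA1+ and DN), 14.4% and 22.2% (day 6 Thy1+ and SSEA1+) and 19.6% (day 9 Thy1+) of all genes were called in either direction. At an unadjusted p below 0.05, 18 rows passed in day 3 Thy1+, 1 in day 6 SSEA1+ and 4 in day 9 Thy1+ cells, and 0 in the other 4. The day 12 effect exceeded the day 0 effect by 0.96 in the median row (21 of 21 called, beside 21.2% of all genes). The effect in SSEA1+ cells differed from that in Thy1+ cells by -0.20 in the median, with a median adjusted p of 0.072 over the rows. Of the 21 rows, 6 were called lower, but they share exons and are not set against the 4.29% of all genes called lower. For the median row the difference was -0.26 without day 6 SSEA1+ shRNA replicate 1. Averaged over the populations the median difference was 0.07, and 19 of 21 rows were called higher at that size, beside 26.2% of all genes. Counts of gamma rows stand for 1 shared measurement and not for that many genes.

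The fibroblast sum went the same way as the gamma rows in the 4 populations where gamma rows were called. It was 45059 and 47801 with control and 132930 and 131971 with Ctcf shRNA at day 12, 74652 and 72530 against 160430 and 158912 in day 6 DN cells, 186203 and 185373 against 241080 and 254653 in day 9 DN cells, and 75242 and 74137 against 35393 and 40610 in day 9 SSEA1+ cells. At day 12, 9 of its 10 genes were called higher, at day 6 in DN cells 9 were higher and 1 lower, and at day 9 in SSEA1+ cells 9 were lower. In day 9 DN cells its sum and its genes differed, with 4 called lower and 2 higher and a median of -0.05. The list also moved where no gamma row was called: in day 6 Thy1+ cells 5 of its genes were lower, with sums of 390064 and 368050 against 280342 and 302412, and in day 6 SSEA1+ cells 6 were higher and 1 lower, with 10161 and 10213 against 12844 and 14245. The part of the fibroblast genes in the gamma result was not tested. The beta sum did not separate in the same way at day 6 in DN cells, with 378 and 390 against 396 and 349.

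Pcdhac2 was called in none of the 11 populations with Ctcf shRNA in the sorted table, with differences between -0.66 and 0.60. Its shRNA effect in SSEA1+ cells exceeded that in Thy1+ cells by 0.77 over days 3, 6 and 9 (SE 0.240, adjusted p = 0.0413; 5.41% of all genes were called in that direction). The call was lost on leaving out 17 of the 24 libraries in turn, with values of 0.60 to 0.94 over all 24. In SSEA1+ cells of day 9 it stood at 38 and 46 with control and at 52 and 78 with the shRNA, and in Thy1+ cells of day 6 at 50 and 75 against 42 and 45.

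**Figure D3:**
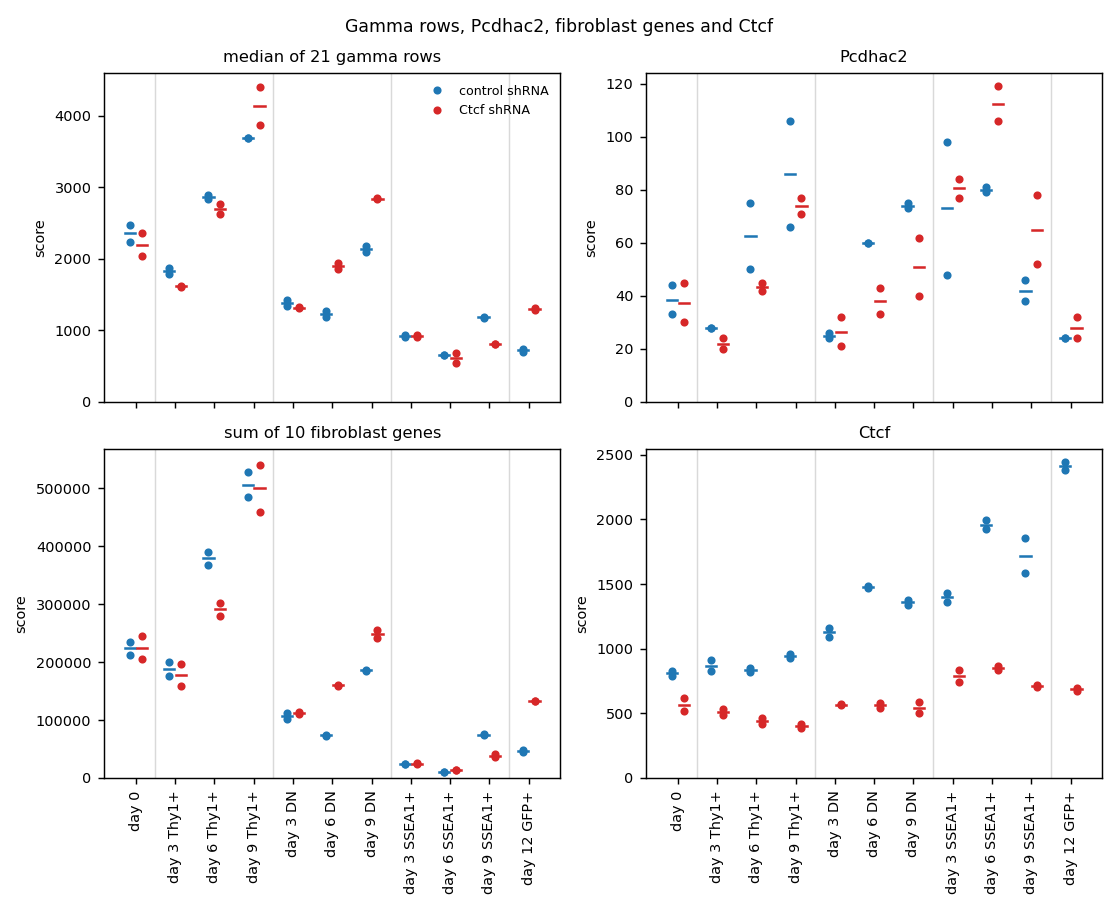
Scores (y axes, linear, from 0) of the median gamma row, of Pcdhac2, of the sum of 10 fibroblast genes and of Ctcf in the 11 populations, with 1 point per library, a bar at the mean of 2, control shRNA in blue and Ctcf shRNA in red. The median gamma row and the fibroblast sum are both higher with Ctcf shRNA in day 6 DN, day 9 DN and day 12 cells, where the median gamma row at day 12 stands at 1291 and 1320 against 704 and 746.

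Protocadherins outside the cluster, cadherin-related adhesion genes with no shared exons, were set beside the members. Of 12 listed, 9 were tested. From day 0 to day 12 of the control 8 fell and Pcdh1 rose (0.93), beside 40.2% and 40.1% of all genes. Their median was -4.17, and the widest fall was that of Pcdh18 (-5.97). With Ctcf shRNA 7 of 9 were higher at day 12, led by Pcdh10 (2.78), and none lower, where 24.6% of all genes were called higher. Of the 23 listed regulators known to act on the clusters (CTCF, cohesin and its loaders and release factors, enzymes and cofactors of DNA methylation and its removal, SMCHD1, SETDB1, TRIM28 and REST), 21 rose from day 0 to day 12, most of all Dnmt3l (9.56), a cofactor of DNA methylation in germ and pluripotent cells, where 40.1% of all genes rose. In the mean Ctcf shRNA effect 15 of the 23 were lower, Ctcf among them (-1.11), and 1 higher, beside 25.8% and 26.2% of all genes. Of 23 tested genes within 500 kb of the cluster, Pcdh1 again among them, 6 fell and 9 rose by day 12. That is no more than the 40.2% and 40.1% of all genes. The median of these neighbours was 0.09, and the widest fall was that of Cd14 (-3.94), a bacterial lipopolysaccharide receptor. In the mean Ctcf shRNA effect 3 of these neighbours were lower and 4 higher, less than the 25.8% and 26.2% of all genes.

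At day 10, with CTCF raised, no clustered protocadherin was called, in a design that called few genes of any kind. None of the 8 beta, 12 alpha and 21 gamma rows was called by limma in any of the 3 comparisons, none had an unadjusted p below 0.05, and over all genes 0.0618% were called with CTCF overexpression, 0.0773% with the added Smarca5 shRNA and 0.101% with both against the control. By the median over genes, though not by the mean, the 2 control columns differed by less than counting noise. They were averaged as 1 sample, which leaves 2 residual degrees of freedom. The spread therefore comes from the other groups alone, and the control is assumed to vary like them. Ctcf itself, at 1262 and 1234 with the control and at 5110 and 6132 with the CTCF vector, was not called either. The absence of calls thus does not show that the genes stayed level. The beta log2 differences lay between -0.08 for Pcdhb19 and 0.19 for Pcdhb20 with CTCF overexpression, and between -0.30 for Pcdhb16 and 0.15 for Pcdhb21 when Smarca5 shRNA was added. Pcdhb20 stood at 226 and 221 with the control, at 247 and 263 with CTCF and at 232 and 252 with CTCF and Smarca5 shRNA. Pcdhb16 stood at 130 and 140, at 154 and 136 and at 114 and 120. Pcdhb19 stood at 354 and 350, at 332 and 335 and at 288 and 356. For Pcdhb20 and Pcdhb19 the CTCF libraries lay on one side of both controls. For Pcdhb16 the control and CTCF groups overlapped, and both libraries with added Smarca5 shRNA lay below them. Per kilobase of exon, Pcdhb18 was the highest beta gene in the control columns (79.3 and 73.8) and Pcdhb22 (23.9 and 26.3) and Pcdhb16 (24.9 and 26.8) the lowest, and those last did not differ beyond their spread.

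**Figure D4:**
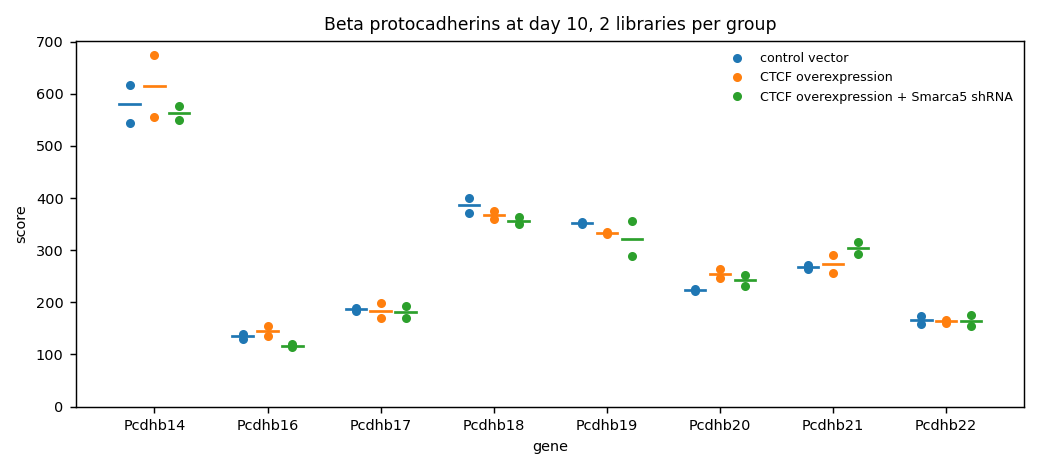
Scores (y axis, linear, from 0) of the 8 beta protocadherins at day 10, with 1 point per library and a bar at the mean of 2, for control, CTCF overexpression, and CTCF overexpression with Smarca5 shRNA. For no gene do all 3 groups separate, and Pcdhb14 is the highest at 544 to 674.

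Alpha rows at day 10 had a median score of 108 and 112 with the control, 119.5 and 115 with CTCF overexpression and 101.5 and 113 with the added Smarca5 shRNA. Their median log2 differences were 0.09 with CTCF and -0.13 when Smarca5 shRNA was added. The median gamma row stood at 2110 and 2182, 2246 and 2166, and 2012 and 2052. The median of the log2 differences taken row by row, a different quantity, was -0.02 with CTCF and -0.12 when Smarca5 shRNA was added, so for CTCF its sign is opposite to that of the median score. The fibroblast sum, over 9 measured genes, was 42899 and 42942, 42996 and 42803, and 43636 and 46866. For the alpha median both CTCF libraries lay above both controls. For the gamma median the control and CTCF groups overlapped, and both libraries with added Smarca5 shRNA lay below them. The pluripotency genes summed to 7349 and 7392 with the control, to 16445 and 11901 with CTCF and to 12212 and 9997 with the added Smarca5 shRNA. The keratinocyte list went the other way, from 23728 and 23706 to 11102 and 13769 and to 15353 and 14626. Both lists separated the CTCF libraries from the control, no gene of either was called, and their part in the protocadherin values was not tested.

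The authors' deposited tables of day 10 list all 58 members and so show beta genes that the other tables leave out. They do not name the condition behind each mean, so directions are given relative to Ctcf in the same table. In the authors' deposited table of Ctcf shRNA, Ctcf had means of 2197 and 1730, a shallower gap than in the sorted cells. Of 22 beta genes, 15 had means under 20 in both conditions and Pcdhb1 was at the floor in both, and per kilobase of exon Pcdhb1 to Pcdhb13 lay between 0.133 and 5.09 and Pcdhb14 to Pcdhb22 between 1.89 and 44.6, with Pcdhb20 the highest. None of the 22 had a p below 0.05 there, beside 5.71% of all genes lower and 6.03% higher with less Ctcf. Pcdhac2 had means of 12.8 with more and 67.5 with less Ctcf in the authors' deposited table (p = 1.15e-05), and Pcdhgc3, a C-type gamma isoform, 378 and 600 (p = 8.2e-07; the lowest p-values of the 58). Pcdhga3 followed in the authors' deposited table with 16.7 and 47.98 (p = 0.0159), and Pcdha4 went the other way, with means of 74.5 and 33.6 (p = 0.0176). The Pcdhgc4 row of the authors' deposited table held 4373 of a summed gamma score of 5274, so constant exons were assigned there in another way than in the other tables, and rows cannot be compared between them. In the authors' deposited table of CTCF overexpression none of the 58 had a p below 0.05, beside 0.79% and 1.56% of all genes, and Pcdhac2 had means of 40.4 and 40.3.

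**Figure D5:**
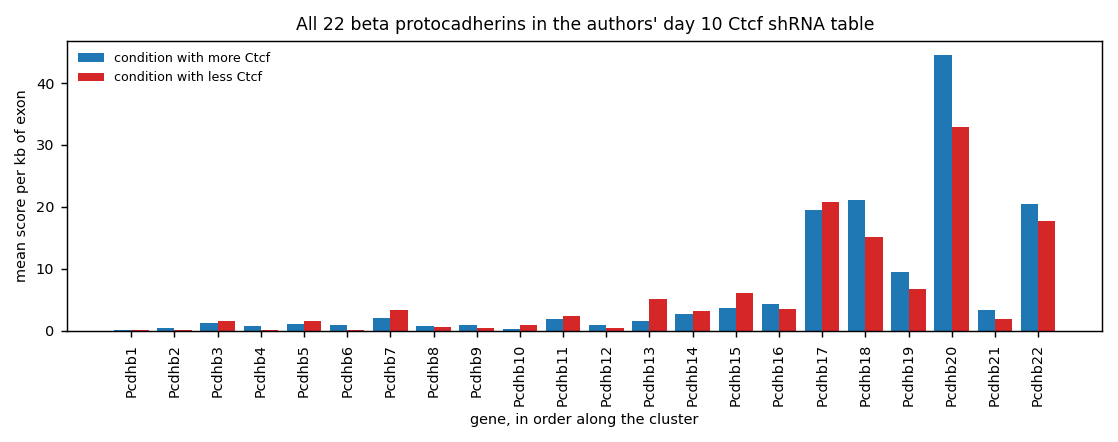
Mean score per kilobase of exon (bars from 0) of the 22 beta protocadherins, in order along the cluster, in the authors' deposited day 10 table of Ctcf shRNA, for the condition with more Ctcf (blue) and with less (red). The bars are means without libraries and carry no error. Pcdhb17 to Pcdhb20 and Pcdhb22 hold most of the signal, and Pcdhb20 is highest at 44.6 and 32.9.

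The table of unscaled counts held 16593659 reads in the MEF and 9912018 in the iPSC library. Of 22 beta genes 8 were listed, and all 8 had more counts per mapped total (CPM) in fibroblasts. The listed genes had 40 or more reads in MEF and at most 8 in iPSC, and may have been listed through the MEF library. That all 8 were higher there may therefore be partly set by the listing. There is 1 library of each kind, so the intervals (95%, exact) cover counting error only. Pcdhb22 had 191 reads (11.5 CPM) in MEF and 8 (0.807 CPM) in iPSC, a ratio of 14.3 (7.09 to 33.5). Pcdhb17 had 161 and 6, a ratio of 16.0 (7.21 to 44.3), and Pcdhb18, with 70 and 6, the smallest at 6.97 (3.05 to 19.6). Pcdhb19 had 106 reads and 0, which is 21.1-fold lower in iPSC when a floor of 3 reads is set in that library. That value leaves out the counting error of its MEF reads (5.23 to 7.73 CPM). Pcdhb16 had 90 and 4, a ratio of 13.4 (5.07 to 50.4). The 3 others had 1 or 2 iPSC reads, with ratios of 11.9 (3.1 to 102) for Pcdhb14, 16.1 (4.25 to 137) for Pcdhb20 and 28.1 (4.8 to 1130) for Pcdhb21. Among all genes, 15.7% were more than 4-fold higher in MEF. The gamma family is 1 row there, with 10373 and 2446 reads and a ratio of 2.53 (2.42 to 2.65), and the alpha family is 1 row, with 82 and 28 reads and a ratio of 1.75 (1.13 to 2.79). The counting intervals of the 7 beta ratios all lay above those of the gamma and alpha rows. By gene ID, those 2 family rows are Pcdhgc4 and Pcdha11 in GRCm38, and each spans most of its family. The beta ratios cover only the listed genes, so the gap to the family rows may also be partly set by the listing.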

How the data were processed

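RNA from 56 samples was profiled, of which 44 sorted-cell and 6 day 10 libraries have their own columns here. The sample columns of both gene tables hold scores, which the authors deposited as normalized, rounded tag counts. In the values, libraries of a table share one distribution (11836 of 14270 ranks within 1 across all sorted libraries, and 11069 of 13868 at day 10). The method is not given in the sources used here, depth is unknown, and a low score depends on the gene's rank. FastQC, Trim Galore and RSEM are named, with GRCm38, per the submitters' processing notes. The MEF and iPSC counts were deposited unscaled, on mm9. The authors' deposited day 10 comparisons hold mean scores with a floor of 0.5, log2 values and a p-value whose adjustment is not stated.

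Here log2(score + 1) was fitted with limma 3.58.1 (R 4.3.3), using its trend option and a term for every group, in each table separately, after requiring a score of 10 in 2 libraries, which every gene met. The pseudocount understates changes of low genes. The fit was tested on simulated data. P-values were adjusted by Benjamini-Hochberg over all genes. The 2 day 10 control columns were averaged, because their median dispersion over counting noise was 0.327, beside 7.255 or more in the other day 10 pairs. Their mean dispersion was 1.724, above counting noise, beside 26.47 or more in those pairs. That yardstick is approximate, since scores are not counts. Count ratios of MEF and iPSC carry exact 95% intervals. Alternatives were other pseudocounts and filters, quantile normalization, no trend, only the compared groups, a replicate block and leaving out each library. Coordinates come from GENCODE vM21.

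Members, gene lists and tests were chosen with earlier results of these data known. All beta genes are named, alpha and gamma rows are given as ranges with their extremes, values per library are given for the beta genes with the widest and narrowest differences, and the 5 genes most like the beta profile are named. Other genes and libraries named beside a result were chosen after their values were seen. Day 10 shRNA samples with no column of their own are not analysed here.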

Additional observations from a re-analysis of the deposited data

Results flagged for a closer look

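In 3 measurements (Pcdhb22, Pcdhac2 and the gamma family, given by its median row and by Pcdhgc3, which share exons) the effect of Ctcf shRNA itself differed between populations, by a limma contrast of the 2 effects adjusted over all genes. For the median gamma row the day 12 effect exceeded the day 0 effect by 0.96 on the log2 scale, and for Pcdhgc3 by 1.13. Pcdhgc3 stood at 3946 and 3838 with control and 3976 and 2883 with Ctcf shRNA at day 0, and at 1046 and 1148 against 2078 and 2110 at day 12. For Pcdhb22 the same difference was 1.31, on day 12 scores of at most 10, and it was lost without day 0 control replicate 2, day 12 control replicate 2, day 0 shRNA replicate 2 or either day 12 shRNA library (adjusted p of 0.123, 0.147, 0.112, 0.053 and 0.0537). For Pcdhac2 the effect in SSEA1+ cells exceeded that in Thy1+ cells by 0.77. That call was lost on leaving out 17 of the 24 libraries in turn, and with only the compared groups in the fit (adjusted p = 0.0687). The fibroblast genes moved as well, from a sum of 45059 and 47801 to 132930 and 131971 at day 12, beside 234923 and 212633 against 244292 and 205671 at day 0, and their part in the day 12 differences was not tested.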

How the results depend on the processing

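Counts of called beta genes from day 0 to day 12 (6), between SSEA1+ and Thy1+ cells (15 of 18) and between SSEA1+ cells and day 0 (11) stayed within 1.5 times under every alternative run, with 4 to 6, 14 to 16 and 10 to 13 on leaving out single libraries. Calls in single populations with Ctcf shRNA fell from 9 to 4 with only the compared groups in the fit, and were 7 to 11 without single libraries. The mean Ctcf shRNA effect gave 2 to 4 without single libraries. The single call among differences between populations was 0 with a pseudocount of 8, with quantile normalization and with only the compared groups, and 0 to 2 without single libraries. Thy1+ cells against day 0, with 4, gave 2 with a pseudocount of 0.5, 8 with a pseudocount of 8, 7 with only the compared groups, and 2 to 5 without single libraries. Day 12 against day 9 SSEA1+ cells gave 2 to 4. At day 10 the count was 0 throughout.

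The mean effect of Pcdhb18, at -0.01, was 0.03 with a pseudocount of 0.5 and -0.26 to 0.24 without single libraries, and that of Pcdhb17 ran from -0.14 to 0.01. The Ctcf shRNA difference of the median gamma row ran from -0.04 to 0.01 in day 3 and from -0.33 to 0.03 in day 6 SSEA1+ cells, and its day 9 call in SSEA1+ cells was lost with only the compared groups (adjusted p = 0.0575). Pcdhb22 at day 12 was 0.46 with quantile normalization (adjusted p = 0.257). For results that changed, the cause was not tested.

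Within each population, same-numbered control and Ctcf shRNA libraries did not deviate together over all genes (correlations of -0.045 to 0.063). The sorted fractions of a day were not compared in this way, so whether the numbers pair samples is not known. With the replicate block the counts were 2 for the mean effect, 10 for single populations, 1 for differences, 6 from start to end, 15 between SSEA1+ and Thy1+ fractions, 11 between SSEA1+ cells and day 0, 4 for Thy1+ against day 0 and 4 for day 12 against day 9. At day 10 the block, tried after seeing the data together with the 2 control columns as 2 samples, gave 0. Depth is unknown, so scores near 0 carry no counting limit.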
